A study of Bos taurus with 13 samples.

Results

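The genes described are the S100A calcium-binding protein family in the whole blood of dairy cows. Members were all gene names made of S100A and a number with 50 or more counts over 13 cows. All 12 such names among the 16095 named genes met this minimum, and the lowest were *S100A3*, with 67 counts in all, and *S100A16*, with 76. Other genes of the A series known in cattle, such as *S100A6* and *S100A7*, had no entry by these names among the named genes and could not be analysed here.

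S100 proteins are small proteins with a pair of EF hands, the helix-loop-helix motif that binds calcium, and most act as dimers that change shape with calcium and then bind a partner. *S100A8* and *S100A9* encode the subunits of calprotectin, which fills the cytosol of neutrophils and is also made by monocytes. Calprotectin holds zinc and manganese away from microbes, and once released it signals through Toll-like receptor 4. *S100A12*, also called calgranulin C, is a neutrophil protein that signals through RAGE, the receptor for advanced glycation end products. *S100A4*, *S100A10* and *S100A11* are expressed by many cell types and work inside the cell, on non-muscle myosin and on annexins.

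The blood came from lactating cows of a commercial herd, labelled Italian Red Pied, and their ages were not given in the sources used here. The high group (7 cows, replicates 1 to 7) and the low group (6 cows, replicates 8 to 13) were taken from the upper and lower ends of a ranking by milk cortisol. No treatment was given to either group, so the groups differ by this ranking and not by an agent. Blood was taken from the tail vein into PAXgene tubes, which preserve RNA at sampling, and sequenced without removing globin RNA. The values are numbers of reads counted per gene name, and CPM is the count per 1000000 counts of the library after TMM scaling, which corrects for differences in library composition.

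Named genes held 11045599 to 28124575 counts per cow. Replicate 4 of the high group stood apart from the other libraries. Among the 11033 genes that passed the filter on low counts it held the highest level of 3025 and the lowest of 2704, while no other cow held the highest level of more than 1361. Results that rest on this cow are therefore given with and without it. The defining genes of blood leukocytes were present in every cow, with at least 33005 counts of the neutrophil receptor *CSF3R*, 1018 of the monocyte gene *CD14*, 10992 of the T cell gene *CD3E* and 7344 of the B cell gene *CD79A*. In bulk blood, fewer cells of a type and less RNA per cell cannot be told apart.

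All 12 genes lie on chromosome 3 of UMD3.1, in the part called the epidermal differentiation complex in other mammals, between positions 16818414 and 18810545. From *S100A13* (16818414 to 16824125) the plus strand carries *S100A14*, *S100A16*, *S100A2*, *S100A3*, *S100A4* (16887102 to 16888570) and *S100A5*. A second cluster begins 252216 bases after *S100A5* and holds *S100A8* (17146918 to 17147898, plus strand), *S100A12* (17163820 to 17165262, plus strand) and *S100A9* (17176217 to 17179005, minus strand). *S100A11* (18768796 to 18770416) and *S100A10* (18799612 to 18810545) are next to each other further along. No exon of a member overlapped an exon of another named gene. Reads were counted without strand, and whether reads shared by similar S100A sequences were split between them could not be checked.

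The family was dominated by 6 abundant genes. Per length, as RPKM (CPM divided by the exon length in kilobases), *S100A4*, a partner of non-muscle myosin, was the highest, with a mean of 4193 RPKM ± 804 (SD, n = 13). Its rank was 10 of 14377 genes with counts. *S100A9* followed with 2452 RPKM ± 638, *S100A11* with 1811 RPKM ± 423, *S100A12* with 1296 RPKM ± 798, *S100A10* with 1028 RPKM ± 161 and *S100A8* with 461 RPKM ± 399 (SD, n = 13). *S100A8* was thus the least abundant of the calgranulins, at rank 170, against rank 32 for *S100A9* and rank 62 for *S100A12*. *S100A13*, which helps to export growth factors and cytokines that lack a signal peptide, had 73.8 RPKM ± 15.9 (SD, n = 13). The other 5 members, better known from epithelia, hair or nerve cells, had mean levels between 0.322 RPKM for *S100A16* and 1.56 RPKM for *S100A5*.

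**Figure D1:**
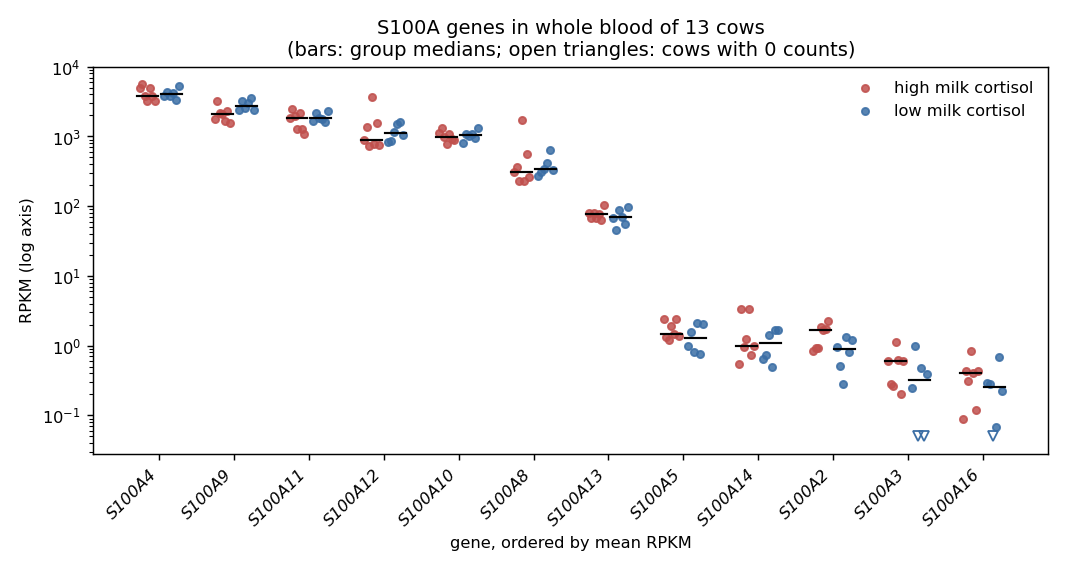
RPKM on a log axis for 12 S100A genes in each cow, red for the 7 cows of the high group and blue for the 6 cows of the low group, with bars at group medians and open triangles for cows with 0 counts. Levels fall from 4193 RPKM for *S100A4* to 0.322 RPKM for *S100A16* on average, and the groups overlap for every gene.

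Not every step in this order was larger than the spread between cows. *S100A4* exceeded *S100A9* in 12 of 13 cows, and *S100A9* exceeded *S100A11* in 11 of 13. *S100A12* exceeded *S100A10* in 7 of 13 cows, with a median ratio of 1.03, so these 2 neighbours in the order did not differ beyond their spread. *S100A14* and *S100A2* did not either (7 of 13 cows, median ratio 1.04). *S100A8* was above *S100A13* in all 13 cows, and *S100A13* was at least 26.0 times as high as *S100A5* in each of them. Together the family took 0.483% to 0.848% of the named counts of a cow in the high group and 0.547% to 0.749% in the low group.

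Neighbours on the chromosome differed widely in level. *S100A3*, a protein of the hair cuticle, lies 2197 bases before *S100A4*, and *S100A5*, known from olfactory nerve cells, lies 2747 bases after it. Per length, *S100A4* was 1600 to 4675 times as high as *S100A5* in every cow, and at least 2869 times as high as *S100A3* in every cow where *S100A3* had counts.

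*S100A8*, which encodes the smaller subunit of calprotectin, was the member with the widest range among the abundant genes. In the high group its lowest value was 90.1 CPM, the median 122 CPM and the highest 681 CPM, and in the low group these were 107, 134 and 255 CPM. The groups overlapped, and the highest value, that of replicate 4 of the high group, was 2.67 times the next one. For *S100A12* the lowest, median and highest values were 524, 631 and 2660 CPM in the high group and 600, 786 and 1142 CPM in the low group. The same cow was again the highest, at 2.33 times the next, and the groups overlapped. *S100A9*, the larger subunit of calprotectin, did not share this peak. Its values were 1176, 1564 and 2415 CPM in the high group and 1776, 2074 and 2675 CPM in the low group, and replicate 4 of the high group sat at 1564 CPM, the median of its group. For *S100A9*, 6 of the 7 high cows, at 1729 CPM or less, lay below every low cow, and replicate 2 of the high group, the exception, lay within the low group's range.

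**Figure D2:**
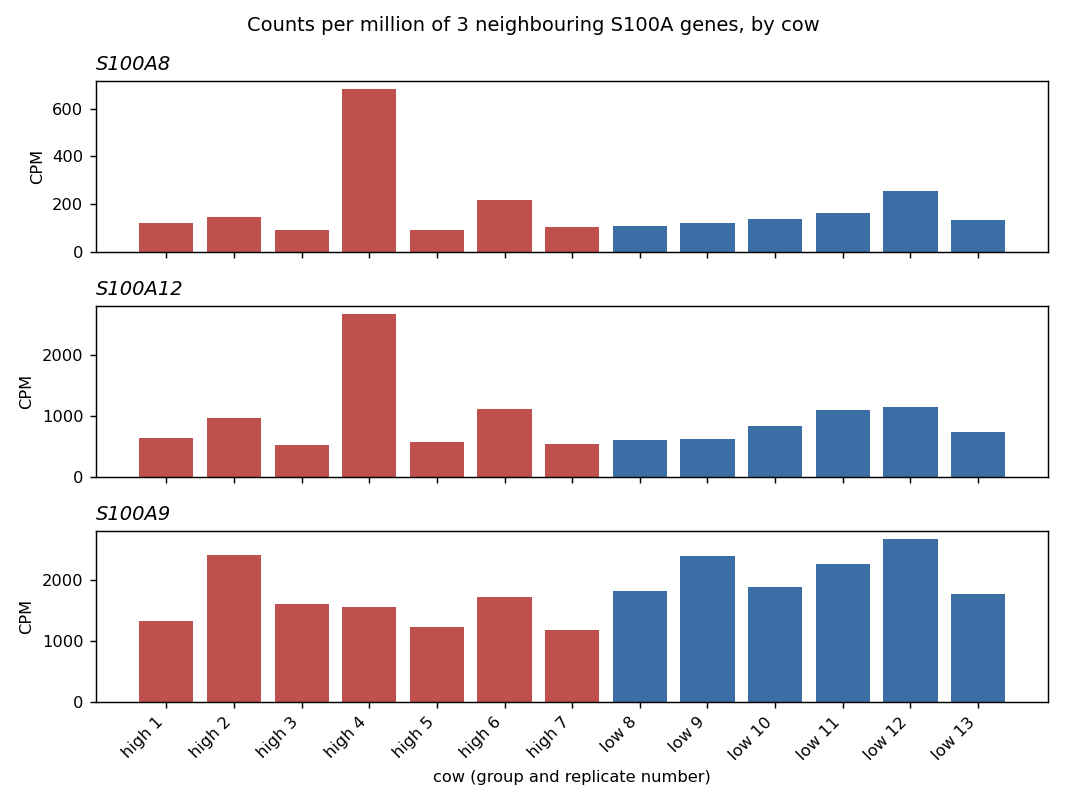
CPM of *S100A8*, *S100A12* and *S100A9* in each of the 13 cows, red for the high group and blue for the low group, with bars from 0. Replicate 4 of the high group is the highest for *S100A8* (681 CPM) and *S100A12* (2660 CPM) and is within the range of the other cows for *S100A9* (1564 CPM).

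Ratios within a cow do not depend on the scaling of the library. Per length, *S100A12* was 2.16 to 3.69 times as high as *S100A8* over all 13 cows, so these genes kept a narrow ratio while *S100A8* itself spanned 7.57-fold. Without replicate 4 of the high group the ratio was 2.48 to 3.69 and *S100A8* spanned 2.83-fold. The 2 subunits of calprotectin did not keep such a ratio. *S100A9* was 4.17 to 10.4 times as high as *S100A8* in 12 cows and 1.21 times as high in replicate 4 of the high group. The median of this ratio was 6.09 in the high group and 7.34 in the low group, with overlap between the groups.

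The spread of log2 CPM over the 13 cows (SD) was 0.79 for *S100A8* and 0.65 for *S100A12*, above that of 95.2% and 90.2% of the genes tested. Without replicate 4 of the high group the SDs were 0.47 and 0.43, above 80.2% and 76.4% of genes. For *S100A9* the SD was 0.38, above 63.6% of genes. *S100A10*, which binds annexin A2 without needing calcium, was among the steadier genes, with an SD of 0.22 that exceeded that of 28.1% of genes. The widest spread of a tested member was that of *S100A14*, a gene of epithelia, at 0.83. It rested on low values, since replicates 2 and 5 of the high group had 3.48 and 3.46 CPM and the other 11 cows 0.513 to 1.74 CPM.

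Of the general members, *S100A4* and *S100A10* varied less than the calgranulins, with SDs of log2 CPM of 0.27 and 0.22 against 0.38 for *S100A9*. *S100A11* varied about as much as *S100A9*, with an SD of 0.36 over all cows. Within the high group its SD was 0.45, against 0.36 for *S100A9*, and within the low group it was 0.20, against 0.24. *S100A4* had a lowest value of 1491 CPM, a median of 1795 CPM and a highest value of 2617 CPM in the high group, and 1536, 1884 and 2501 CPM in the low group. *S100A11*, a partner of annexin A1, had 662, 1136 and 1545 CPM in the high group and 1015, 1127 and 1455 CPM in the low group. *S100A10* had 477, 600.2 and 788 CPM in the high group and 491, 634 and 788 CPM in the low group. For each of these genes the ranges of the groups overlapped. *S100A13* had 26.8, 33.4 and 43.7 CPM in the high group and 19.3, 29.4 and 41.1 CPM in the low group, also with overlap.

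The rare members were near the limit of detection. *S100A5* had 4 to 27 counts per cow, *S100A2* 2 to 22, *S100A16* 0 to 14 and *S100A3* 0 to 11. *S100A3* was at 0 counts in replicates 10 and 12 of the low group, and a count of 0 there allows a level of up to 0.180 and 0.272 CPM (3 counts, unscaled, counting error only). *S100A16* was at 0 in replicate 10 of the low group. Over all genes, 82.9% of the counts from 2 to 5 were even numbers and counts of 2 outnumbered counts of 1 by 7347 to 1757, and the file headers name no option for read pairs. Whether both reads of a pair were counted was not tested.

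The comparison of the high with the low group asks whether expression differed with milk cortisol. Among the 9 members that passed the filter on low counts, 0 had an adjusted p below 0.05 in the quasi-likelihood test of edgeR, where each had 0.999, against 0% of the 11033 genes tested. At an unadjusted p below 0.05 there was 1 of the 9 members, *S100A9*, against 2.09% of all genes tested. Log2 fold changes (high over low) were above 0 for 6 members and below 0 for 3, with a median of 0.12, and 53.3% of all genes tested lay above 0. The groups overlapped in log2 CPM for all 9 members, and they did not overlap for 0.0272% of all genes tested. DESeq2 was run without this filter, on 14346 genes and all 12 members. It gave 0 members at an adjusted p below 0.05 (0.00697% of its genes) and 1, *S100A9*, at an unadjusted p below 0.05 (2.43% of its genes). With limma-voom, on the 9 filtered members, these were 0 members (0% of the 11033 genes) and again *S100A9* alone (1.98% of them).

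Mean *S100A9* was 1579 CPM ± 423 in the 7 high cows (SD) and 2136 CPM ± 365 in the 6 low cows (SD). The difference in edgeR was -0.44 on the log2 scale, with a standard error of 0.16, an unadjusted p of 0.0166 and, over all genes, an adjusted p of 0.999. Permuting the cows in all 1716 ways, an exact test on log2 CPM, gave a two-sided p of 0.0233, not adjusted. With any 1 cow left out, the log2 fold change stayed between -0.56 and -0.36, and the unadjusted p of edgeR's test was between 0.000936 and 0.0485. With the log2 share of haemoglobin counts as a covariate it was -0.27 (standard error 0.20, unadjusted p 0.201, edgeR), and 0 members then had an unadjusted p below 0.05, against 1.09% of all genes. Haemoglobin genes took 0.0282% to 0.815% of the counts in the high group and 0.0114% to 0.0552% in the low group.

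Of 19 neutrophil genes chosen as markers, 13 were in the count tables by name and 11 were tested. Their summed level was 3240 to 6492 CPM in the high group and 4611 to 8131 CPM in the low group, and *CATHL4* was at 0 counts in every cow. Of the 11, 7 had a log2 fold change below 0 and 4 above, while 53.3% of all genes tested lay above 0. *MPO* had 0.68, *CEBPE* 0.40, *PADI4* 0.14 and *ELANE* 0.04. Only *CSF3R*, the receptor for the growth factor of neutrophils, had an unadjusted p below 0.05, against 2.09% of all genes tested. Its log2 fold change was -0.45 in edgeR (standard error 0.19, unadjusted p 0.0324, adjusted p 0.999). The mean score of these genes, a cow's average deviation in log2 CPM, was -0.07 in the high group and 0.08 in the low group (exact permutation p 0.515, not adjusted). With the score of these neutrophil genes as a covariate, the edgeR estimate for *S100A9* was -0.40 (standard error 0.15, unadjusted p 0.0167). Of 9 monocyte genes, all tested, 6 had a log2 fold change above 0 and 3 below. Their summed levels were 971 to 1793 CPM in the high group and 1381 to 1786 CPM in the low group. *CD68* alone had an unadjusted p below 0.05, with -0.53 in edgeR (standard error 0.17, unadjusted p 0.00748, adjusted p 0.999). The monocyte score had an exact permutation p of 0.89 between the groups, not adjusted. The part of monocyte RNA in the *S100A9* values was not tested.

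In edgeR the log2 difference of *S100A8* was 0.45 with all cows (standard error 0.45, unadjusted p 0.338) and -0.25 (standard error 0.24, unadjusted p 0.325) without replicate 4 of the high group. For *S100A12* it was 0.25 with all cows (standard error 0.35, unadjusted p 0.475) and -0.22 (standard error 0.22, unadjusted p 0.331) without that cow. The sign of both values was thus set by 1 library. Mean *S100A8* was 207 CPM ± 214 in the 7 high cows (SD), an SD above the mean, and 152 CPM ± 53.8 in the 6 low cows (SD).

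Among the other members, log2 fold changes were 0.04 for *S100A4* (standard error 0.15), -0.04 for *S100A10* (standard error 0.13) and -0.14 for *S100A11* (standard error 0.18). *S100A13* had 0.12 (standard error 0.17), *S100A5* 0.30 (standard error 0.33) and *S100A14* 0.57 (standard error 0.48). The signs of *S100A4* and *S100A10* turned when some single cows were left out, and those of *S100A10* (0.14) and *S100A11* (0.12) with the haemoglobin share as a covariate. The unadjusted p of these 6 genes lay between 0.247 and 0.815 in edgeR's test. *S100A2*, *S100A3* and *S100A16* were below the filter on low counts. In the fit without a filter their log2 fold changes were 0.74 (standard error 0.43), 0.60 (standard error 0.68) and 0.61 (standard error 0.67), with a smallest unadjusted p of 0.103, that of *S100A2*. Their counts were low and their standard errors wide, and no call was made for them.

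**Figure D3:**
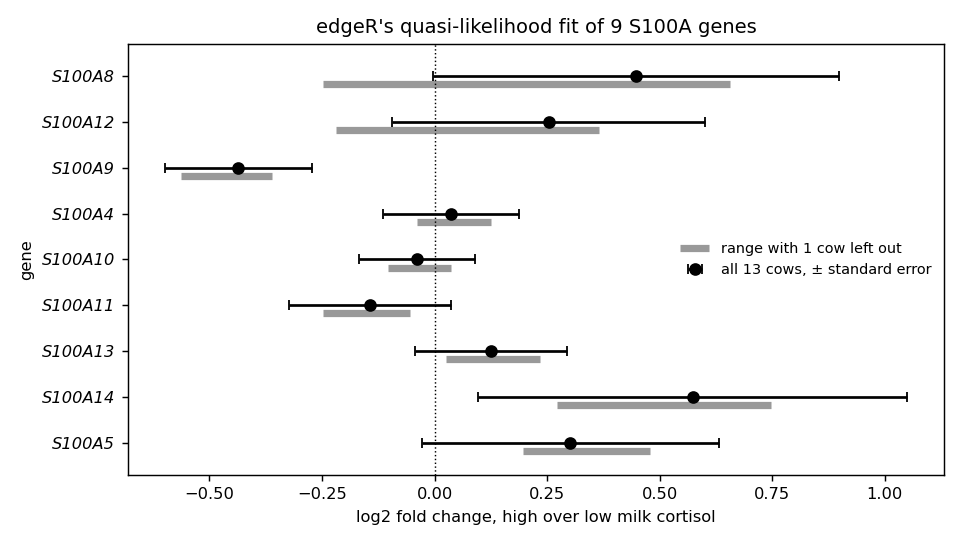
Log2 fold change of the high over the low group for the 9 tested S100A genes from edgeR's quasi-likelihood fit, points with standard errors for all 13 cows and grey bars for the range with 1 cow left out. The range of *S100A9* stays below 0 (-0.56 to -0.36), while those of *S100A8* (-0.25 to 0.66) and *S100A12* (-0.22 to 0.36) span 0.

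Co-variation over the cows was measured for the 36 pairs of the 9 tested members, with permutation tests of 100000 resamples and Benjamini-Hochberg adjustment over the pairs. A total of 4 pairs passed an adjusted p of 0.05, and they formed a pair of calgranulins and a trio of general members. *S100A8* and *S100A12* had the highest correlation, with a Pearson's r of 0.97 (permutation p 1e-05, the smallest that the resamples can give, adjusted p 0.00036) and a Spearman's rho of 0.98 (permutation p 1e-05, adjusted p 0.00036). Without the 2 cows farthest from the median of *S100A8*, replicate 4 of the high group and replicate 12 of the low group, r was 0.94. It was 0.99 within the 7 high cows and 0.89 within the 6 low cows. The exact permutation p within the low cows, 0.00139, was the smallest that 6 cows can give. After adjustment over the 36 pairs it became 0.05, so a single pair at this smallest p could not have passed there. Of the 11032 other genes tested, none had a higher r with *S100A8* than *S100A12*, and none a higher r with *S100A12* than *S100A8*.

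*S100A4*, *S100A10* and *S100A11* formed the trio. *S100A4* and *S100A10* had an r of 0.86 (permutation p 0.00017, adjusted p 0.00306) and a rho of 0.85 (permutation p 0.00047, adjusted p 0.00657). *S100A4* and *S100A11* had an r of 0.83 (permutation p 0.00058, adjusted p 0.00696) and a rho of 0.84 (permutation p 0.00072, adjusted p 0.00657). *S100A10* and *S100A11* had an r of 0.80 (permutation p 0.00108, adjusted p 0.00972) and a rho of 0.84 (permutation p 0.00073, adjusted p 0.00657). Within each group these r were between 0.75 and 0.95, and without the 2 farthest cows between 0.73 and 0.78. Ordered by r among the 11032 other genes, *S100A10* had rank 6 for *S100A4* and *S100A11* rank 20, while for *S100A10* the rank of *S100A11* was 23. High correlations were common in these libraries: for *S100A4*, *S100A8*, *S100A10*, *S100A11* and *S100A12*, 2.5% of all other genes had an r above a value between 0.66 and 0.75. The permutation p tests for no correlation and does not compare a pair with these other genes. *S100A10* and *S100A11* are neighbours on the chromosome, while *S100A4* is in another cluster.

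*S100A9* was not closest to the partner it binds. Its correlation with *S100A8* had an r of 0.23 (permutation p 0.463, adjusted p 0.725) and a rho of 0.47 (permutation p 0.107, adjusted p 0.462). Ordered by r with *S100A9*, *S100A8* had rank 1856 and *S100A12* rank 1203 of the 11032 other genes. Ordered by r with *S100A8*, *S100A9* had rank 4087. With *S100A12*, *S100A9* had an r of 0.31 (permutation p 0.320, adjusted p 0.581) and a rho of 0.46 (permutation p 0.116, adjusted p 0.462). Without replicate 4 of the high group, r was 0.64 with *S100A8* (permutation p 0.0261, adjusted p 0.134) and 0.67 with *S100A12* (permutation p 0.0198, adjusted p 0.119), and its rank for *S100A8* was 111. Without the 2 cows farthest from the median of *S100A9*, replicate 7 of the high group and replicate 12 of the low group, its r with *S100A12* was 0.12. Without the 2 cows farthest from the median of *S100A12*, replicate 4 of the high group and replicate 12 of the low group, that r was 0.59. The latter 2 cows were also the farthest from the median of *S100A8*, and without them the r of *S100A9* with *S100A8* was 0.50. Within the 6 low cows r with *S100A8* was 0.73 (exact permutation p 0.0639), and within the 7 high cows it was 0.27 (exact permutation p 0.527). *S100A9* and *S100A13* had the lowest correlation of all pairs, with an r of -0.67 (permutation p 0.0107, adjusted p 0.0768) and a rho of -0.55 (permutation p 0.0530, adjusted p 0.381).

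**Figure D4:**
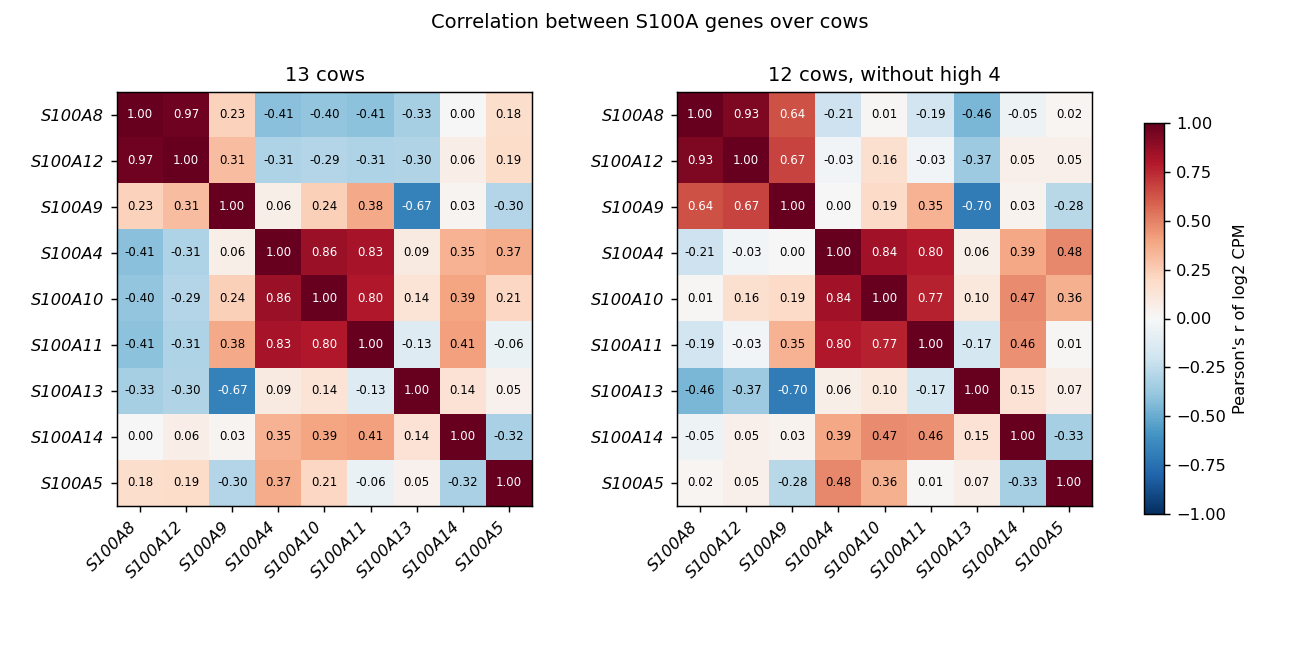
Pearson's r of log2 CPM between the 9 tested S100A genes, over 13 cows at left and over 12 cows without replicate 4 of the high group at right, with the color from blue (-1) to red (1). *S100A8* and *S100A12* form a pair (0.97 and 0.93) and *S100A4*, *S100A10* and *S100A11* a trio, while the r of *S100A8* and *S100A9* is 0.23 at left and 0.64 at right.

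**Figure D5:**
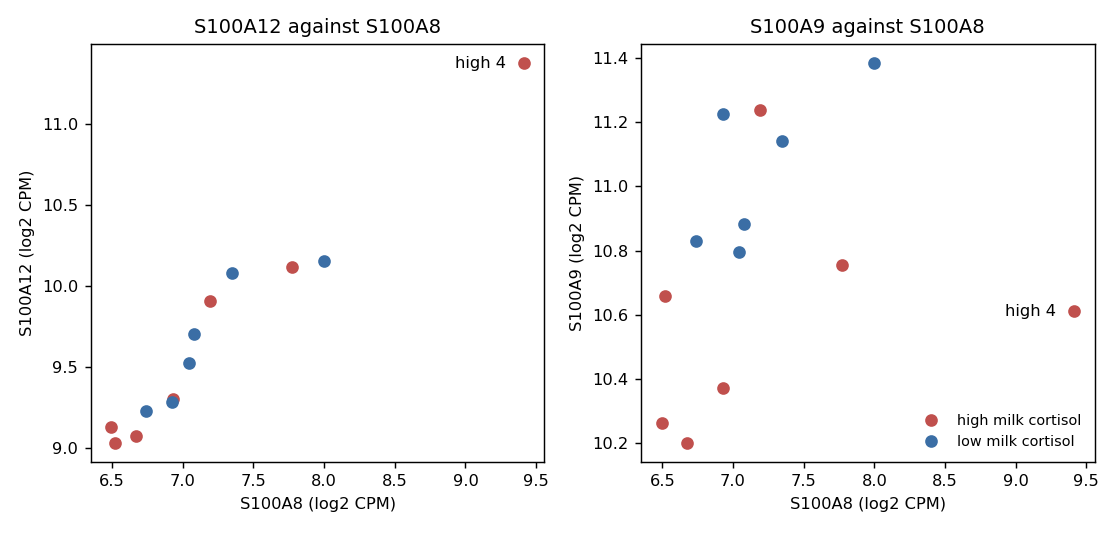
Log2 CPM of *S100A12* (left) and *S100A9* (right) against *S100A8*, 1 point per cow, red for the high group and blue for the low group. At left all 13 cows lie along a rising line (r = 0.97), and at right replicate 4 of the high group lies to the side of the other 12.

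The genes outside the family whose pattern was most like each calgranulin over the 13 cows are given with Pearson's r, as a description. For *S100A8* they were *RPL23* (0.93), *RPS27A* (0.92), *RPL11* (0.92), *MAPRE1* (0.91) and *RPL37* (0.90), 4 of them genes of ribosomal proteins. For *S100A12* they were *MAPRE1* (0.93), *RPL23* (0.91), *RPS27A* (0.91), *LY96* (0.90) and *RPL37* (0.90). Replicate 4 of the high group had the highest level of each of these 6 genes, for *RPL23* 1066 CPM against 79.5 to 312 CPM in the other cows, and for *RPL37* 782 CPM against 36.4 to 128 CPM. Without it, the r of *RPL23* with *S100A8* was 0.77, while that of *S100A12* with *S100A8* was 0.93. Taken over 49 ribosomal protein genes, the mean deviation of log2 CPM from the mean of the cows was 0.59 in this cow and -0.52 to 0.27 in the others. By their share of counts this cow was not the highest, with 4.96% against 5.11% in replicate 7 of the high group. The part of the shift in ribosomal protein genes in the calgranulin values was not tested.

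For *S100A9* the list was a different one, and held *KREMEN1* (0.84), *KCNJ10* (0.84), *ADGRG3* (0.84), *CHI3L1* (0.83) and *CA4* (0.82). *CHI3L1* encodes a chitinase-like protein that neutrophils store in granules, and *CA4* a carbonic anhydrase of the cell surface. The r of these 5 genes with *S100A9* was between 0.81 and 0.88 without replicate 4 of the high group. All 5 had a log2 fold change below 0, between -0.78 and -0.37, and *ADGRG3* and *CA4* had an unadjusted p of 0.0363 and 0.0219 in edgeR's test. Genes chosen for their likeness to *S100A9* are not independent evidence of its direction.

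No member followed a blood cell type beyond what the adjustment over 81 relations allows. The relations were those of 9 members with the scores of 9 lists, where a score averages a cow's deviations in log2 CPM over the list, and the smallest adjusted p of a permutation test was 0.591. *S100A9* had an r of 0.47 and a rho of 0.63 with the neutrophil score (permutation p 0.107 and 0.0238, adjusted p 0.717 and 0.866) and an r of -0.65 with the score of erythroid genes (permutation p 0.0146, adjusted p 0.591). Its r with the neutrophil score was 0.66 within the 7 high cows and -0.14 within the 6 low cows. With the erythroid score its r was -0.59 within the high cows and 0.44 within the low cows. The smallest unadjusted p was that of *S100A5* with the T cell score, at an r of 0.69 (permutation p 0.0105, adjusted p 0.591) and a rho of 0.72 (permutation p 0.00746, adjusted p 0.604). The r of *S100A5* was 0.29 within the high cows and 0.97 within the low cows. These values rest on 4 to 27 counts of *S100A5* per cow, near the limit of detection. *S100A8* had an r of -0.45 and *S100A12* of -0.37 with the neutrophil score, and -0.23 and -0.09 without replicate 4 of the high group. With the monocyte score, r was 0.39 for *S100A8*, 0.46 for *S100A12* and 0.43 for *S100A9* over all cows, and 0.13, 0.29 and 0.54 without replicate 4 of the high group. Within the 7 high cows these r were 0.51, 0.60 and 0.77, and within the 6 low cows they were -0.58, -0.49 and -0.10. The neutrophil score of replicate 4 of the high group was -0.51, the lowest of all cows, and its monocyte score was 0.33. With the score of 7 glucocorticoid response genes, *FKBP5* and *PER1* among them, the r of the 9 members lay between -0.10 and 0.31 over all cows. Without replicate 4 of the high group it lay between -0.32 for *S100A8* and 0.41 for *S100A4*. Within the groups these r were wider apart, from -0.77 for *S100A13* to 0.70 for *S100A11* in the 7 high cows. In the 6 low cows they ran from -0.71 for *S100A14* to 0.27 for *S100A13*. For *S100A9* they were 0.59 in the high cows and -0.53 in the low cows.

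Other genes through which S100A proteins act were examined as lists. Over all genes tested, 2.09% had an unadjusted p below 0.05 and 53.3% lay above 0, so that in lists of this size a count of 0 is no result about the list. For the receptors and sensors of the released calgranulins, 4 of 7 genes were tested and 0 had an unadjusted p below 0.05 in edgeR's test, with 3 log2 fold changes below 0. *TLR4* had -0.35 (standard error 0.20) and *AGER*, which encodes RAGE, had -0.39 (standard error 0.25). *LY96*, the partner of Toll-like receptor 4, had 57.7 CPM in replicate 4 of the high group and 8.26 to 31.4 CPM in the others. Of 6 NADPH oxidase genes, the enzyme to which calprotectin delivers arachidonic acid, 0 had an unadjusted p below 0.05, and log2 fold changes ran from -0.31 for *NCF1* to 0.04 for *CYBB*. Of 7 intracellular partners, 5 lay below 0 and 0 had an unadjusted p below 0.05, with -0.22 (standard error 0.17) for *ANXA2*, which pairs with *S100A10*, and 0.03 (standard error 0.19) for *ANXA1*, which pairs with *S100A11*. Of 6 myeloid transcription factors, 3 were tested, with 0 at an unadjusted p below 0.05 and -0.19 (standard error 0.17) for *SPI1*. Of 5 genes named S100 outside the A series, a binding protein included, *S100B* (-0.55, standard error 0.46) and *S100PBP* (0.17, standard error 0.16) were tested, with 0 at an unadjusted p below 0.05, while *S100G* and *S100Z* had at most 2 counts in any cow. In all 5 lists 0 genes passed an adjusted p of 0.05.

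The marker lists of other blood cells were compared in the same way, with 0 genes at an adjusted p of 0.05 in any of them. No gene had an unadjusted p below 0.05 in edgeR's test among the 10 T cell genes (median log2 fold change -0.06), 8 B cell genes (0.13), 7 cytotoxic and NK genes (0.28), 3 tested of 6 eosinophil genes (0.42), 6 tested of 8 platelet genes (-0.34) and 7 glucocorticoid response genes (-0.05). Of 8 erythroid genes, 6 were tested and 4 had an unadjusted p below 0.05, all higher in the high group, against 0.934% of all genes tested in that direction. They were *HBB* (2.68, standard error 0.69), *HBG* (2.88, standard error 0.72) and *HBM* (2.76, standard error 0.78), which encode globins, and *ALAS2* (1.21, standard error 0.46), the entry enzyme of haem synthesis in red cells. The mean erythroid score was 0.56 in the high group and -0.66 in the low group (exact permutation p 0.0181, not adjusted). The part of red cell RNA in the S100A values was not tested beyond the fits with the haemoglobin share as a covariate.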

How the data were processed

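RNA of whole blood was sequenced from 13 cows, and groups and replicate numbers were taken from the labels. The authors deposited raw counts per gene name, 1 table per cow. Per the file headers these came from featureCounts 1.4.6-p3 with gene models of UMD3.1, Ensembl release 88. The submitters' processing notes name STAR 2.7.3, Subread 1.6.5 and ARS-UCD1.2, and this difference was not resolved. The headers also name the alignments by numbers that match neither titles nor table names, and a folder called after goats. The assignment of tables to cows and groups therefore rests on the labels alone and could not be checked, which bears on every comparison of high with low. Exon lengths and positions are those of the deposited tables. An entry without a gene name, 13.9% to 16.7% of all counts, was left out of library sizes and tests. CPM, RPKM and log2 values were computed here from the counts with TMM factors and, for log2 CPM, a prior count of 2.

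Groups were compared with the robust quasi-likelihood test of edgeR 4.0.16 in R 4.3.3 on genes passing filterByExpr (minimum count 10, minimum total 15), with Benjamini-Hochberg adjustment. DESeq2 1.42.0 and limma 3.58.1 (voom), other scaling factors, filters, covariates and leaving out each cow were alternatives. The scripts were tested on simulated data. Named genes are all members, genes of the lists, and the 5 genes outside the family with the highest r for each calgranulin. Genes most like other members, in the closing section, were added after their values were seen. The members and lists were chosen with earlier results of these data known. Replicates are separate samples in the labels. The study selected 10 cows per group, and 7 and 6 were analysed here.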

Additional observations from a re-analysis of the deposited data

Results flagged for a closer look

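In the high group, the ratio of *S100A8* to *S100A9* of replicate 4 lay far from the other cows by Dixon's test. Its log2 ratio of RPKM was -0.28, and the nearest cow of the group was at -2.06. The log2 ratio of *S100A9* to *S100A12* was -0.84 in the same cow, with the nearest at 0.57. These were 2 values beyond the 95% limit among 48 comparisons of the highest or lowest cow over 12 measures. Chance puts about 1 in 20 groups beyond the limit, which gives 1.2 here, and both values come from the same library and share *S100A9*.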

How the results depend on the processing

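No paired analysis was possible because the groups share no replicate number. Over 23 other settings the smallest adjusted p of any S100A gene was 0.893. With the haemoglobin share as a covariate, 0 members had an unadjusted p below 0.05 against 1 otherwise, and *S100A11* (0.12) and *S100A10* (0.14) changed sign. With 1 cow left out, the log2 fold change ranged from -0.038 to 0.12 for *S100A4*, from -0.25 to 0.66 for *S100A8*, from -0.22 to 0.36 for *S100A12* and from -0.10 to 0.036 for *S100A10*, each with values on both sides of 0. Within the low cows the r of *S100A8* and *S100A12*, 0.89, had an adjusted p of 0.05 and no longer passed. The causes were not tested. Of the other fold changes under these settings, 96 kept their sign, as did 109 with 1 cow left out. These include *S100A9* with the haemoglobin covariate, whose value went from -0.44 to -0.27 and whose unadjusted p went from 0.0166 to 0.201 in edgeR's test. *S100A5* gave no value with at least 10 counts in every cow. Low counts leave *S100A2*, *S100A3* and *S100A16* with standard errors of 0.43 to 0.68.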

Other observations

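The genes most like the general members were listed after their values were seen. *EIF4EBP1*, which encodes a repressor of translation initiation, was among the 5 genes with the highest r for *S100A4* (0.87), *S100A10* (0.89) and *S100A11* (0.87) alike. *PRELID1*, a mitochondrial lipid transfer gene, was among those of *S100A4* (0.89) and *S100A10* (0.89). For *S100A13* the gene of a T cell and NK cell chemokine, *CCL5*, had an r of 0.84, and 0.89 without replicate 4 of the high group. These are descriptions over 13 cows that share their libraries.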
